A study of Homo sapiens with 16 samples.

Results

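The libraries described here are the 8 of TT642 cells among the 16 libraries of the series: 6 from TT642 lines that carry a hairpin against PRRX1 and 2 from TT642 parental cells that carry none. They were taken by their titles, and hairpin lines were set against parental cells with doxycycline as a covariate. The 6 hairpin libraries came from 3 derived lines, 1 per short hairpin RNA (shRNA), each sequenced without doxycycline and with 3 µg/ml doxycycline, the drug that switches the hairpin on. The 2 parental libraries came from cells with no hairpin, 1 without and 1 with the same dose. The product of PRRX1 is a homeodomain protein that regulates transcription in mesenchyme. TT642 carries a rhabdoid tumour source label, whereas the design of the series speaks of triple-negative breast cancer. The other 8 libraries have the same layout in Hs578, a breast cancer line, and are used only for comparison. Polyadenylated RNA was sequenced from stranded libraries. The sources used here do not give the hairpin vector, the selection of the derived lines, their passage number or the treatment time. The presence of a hairpin construct, the derivation of a line and the time in culture therefore cannot be told apart. In the induced hairpin libraries the knockdown of PRRX1 comes on top, and doxycycline as a covariate does not separate it from hairpin status.

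An inducible hairpin system keeps a hairpin silent until a tetracycline-type drug releases its promoter. A parental culture is therefore the control for the drug, and the untreated derived line is the control for the hairpin. Cells in culture are also a mixed population, and a line derived from them descends from the cells that took up a construct and grew on. Genes by which the parental culture stood apart from all derived lines, with and without the drug, are the subject here.

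Total counts of the TT642 libraries ran from 15265227 to 24672906. SMARCB1, the SWI/SNF chromatin remodelling subunit that rhabdoid tumours typically lose, was present at 35.8 to 41.6 CPM (counts scaled to 1000000 per library, here on effective library sizes from TMM normalisation of all 16 libraries) in the hairpin libraries and at 28.8 and 33.1 CPM in the parental libraries, against 87.7 to 125 CPM in Hs578. The mesenchymal filament gene VIM lay at 9915 CPM or more in every TT642 library. The oestrogen receptor gene ESR1 and the epithelial genes EPCAM, KRT19 and CDH1 did not exceed 0.186 CPM in any TT642 library, while ERBB2, which encodes HER2, reached 173 CPM. On the first principal component, which held 43.3% of the variance, the hairpin libraries lay between 2.0 and 35.0 and the parental libraries at -39.0 and -35.2. The median absolute log2 difference per gene was 0.164 to 0.241 between a hairpin line and the parental cells at the same treatment, and 0.103 to 0.182 between 2 hairpin lines at the same treatment. With against without doxycycline it was 0.135 for hairpin 1, 0.193 for hairpin 2 and 0.109 for hairpin 3, against 0.0971 for parental cells, so the step of hairpin 2 exceeded some of the differences from the parental cells.

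PRRX1, the target of the hairpins, was measured first in every library. It reached 1298, 1511 and 1403 CPM, from here on scaled to effective sizes from the TT642 libraries alone, in untreated hairpins 1, 2 and 3, and 285, 197 and 543 CPM in the induced ones, against 1594 CPM in untreated and 1641 CPM in induced parental cells. All 6 hairpin libraries lay below both parental libraries, and the 3 induced ones lay far below. Across both treatments PRRX1 differed by -1.41 ± 0.56 (log2, SE) between hairpin lines and parental cells, which missed the threshold in edgeR's quasi-likelihood test (adjusted p = 0.161).

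Of 12553 genes tested with edgeR, 1615 (12.9%) differed between the hairpin lines and the parental cells at an adjusted p under 0.05. Of these, 764 (6.09%) were higher and 851 (6.78%) lower in the hairpin lines, and 59 of the higher (0.47% of all tested) and 213 of the lower genes (1.7%) differed at least 2-fold. All 1615 had the same direction in the 6 comparisons of a hairpin library with the parental library of the same treatment, against 5337 of all 12553. In 1566 (12.5%) the 6 hairpin libraries and the 2 parental libraries did not overlap. Both counts largely follow from the selection of the 1615 genes on these same libraries, and the 6 comparisons share 2 parental libraries. The same holds wherever the groups of a called gene are said below not to overlap. Without regard to the test, the 2 groups did not overlap for 4143 genes (33%), 16.4% on the higher and 16.6% on the lower side. The median absolute log2 difference between hairpin lines and parental cells was 0.176 over all genes tested, against 0.0971 between the parental libraries with and without doxycycline, and over the called genes, which were selected for a difference, these medians were 0.448 and 0.0924.

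The parental libraries came from 1 culture name and the hairpin libraries from 3 derived lines, so the 8 libraries are fewer independent cultures than libraries. With the derived line as a replicate block, 963 genes were called, 388 higher and 575 lower, and after the 2 libraries of each line were summed into 3 hairpin lines against 1 parental culture, 94 were called, 24 higher and 70 lower. Both of these fits and the fit of all 8 libraries called 90 genes in common, 23 higher and 67 lower. Of these, 35 (5 higher and 30 lower) were also called among the untreated libraries alone and without either parental library in turn, among them MCTP1, CLDN1, MME, MARCKS, NRIP1, ABCA8, DLK1, CXCL1, PCDH10 and SLC38A2 on the lower side and CACNA1G and SFRP1 on the higher side. The derived lines also set the count: without both libraries of hairpin 2, 3453 genes were called, and without those of hairpin 1 or hairpin 3, 690 and 801.

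The genes with the largest decreases were expressed in the parental cells and at a small part of that level in every hairpin line. MARCKS encodes a protein kinase C substrate that links the actin cytoskeleton to the plasma membrane. Its levels were 17.1, 22.0 and 24.9 CPM in untreated hairpins 1, 2 and 3 and 19.1, 23.2 and 30.0 CPM in induced ones, against 243 CPM in untreated and 237 CPM in induced parental cells. The groups lay far apart and the hairpin lines close together, with a fold change of -3.40 ± 0.16 (log2, SE; edgeR adjusted p = 5.87e-05). In RNA from whole cultures, fewer cells that express a gene and less RNA of it per cell cannot be told apart.

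The other genes proposed as markers of the parental culture are a calcium-binding C2 domain protein (MCTP1), a cell surface metallopeptidase (MME, also called CD10), a nuclear receptor coregulator (NRIP1) and N-cadherin (CDH2). MCTP1 lay at 0.0499 to 0.780 CPM in the hairpin libraries, against 6.64 CPM in untreated and 8.97 CPM in induced parental cells. MME lay at 0.0997 to 0.366 CPM in the hairpin libraries, against 5.59 CPM in untreated and 2.48 CPM in induced parental cells. NRIP1 lay at 1.70 to 3.44 CPM in the hairpin libraries, against 23.8 CPM in untreated and 22.0 CPM in induced parental cells. The fold changes of these 3 genes were -4.27 ± 0.42, -3.87 ± 0.34 and -3.22 ± 0.18 (log2, SE), each with no overlap between the groups (edgeR adjusted p = 0.000767, 0.00039 and 4.14e-05). CDH2, the adhesion molecule of mesenchymal and neural cells, had 188, 79.1 and 266 CPM in untreated hairpins 1, 2 and 3 and 146, 81.8 and 219 CPM in induced ones, against 536 CPM in untreated and 506 CPM in induced parental cells. Its groups did not overlap either, but the hairpin lines differed more than 3-fold among themselves, hairpin 2 being lowest. The fold change of -1.68 ± 0.50 (log2, SE) was not called (edgeR adjusted p = 0.0853), while 4 of 24 alternative fits called it and 20 did not. So 4 of the 5 proposed markers were called, beside 12.9% of all genes tested. The markers were proposed with results of these same data known, so this count is no independent test of them.

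Other large decreases were those of ABCA8, CLDN1, DLK1, HEY1 and MMP16. ABCA8, an ABC transporter of lipids, had 7.53, 11.9 and 8.88 CPM in untreated hairpins 1, 2 and 3 and 6.62, 9.53 and 9.61 CPM in induced ones, against 74.0 CPM in untreated and 79.7 CPM in induced parental cells, a fold change of -3.08 ± 0.15 (log2, SE; edgeR adjusted p = 4.14e-05). CLDN1, the tight junction protein claudin 1, lay at 0.713 to 1.87 CPM in the hairpin libraries, against 18.3 CPM in untreated and 19.97 CPM in induced parental cells. Neither gene showed an overlap between the groups. DLK1, a transmembrane relative of Notch ligands that marks immature mesenchymal cells, lay at 6.18 to 15.7 CPM in the hairpin libraries, against 46.0 CPM in untreated and 58.1 CPM in induced parental cells. ABCA8 and DLK1 were also the 2 genes called among the induced libraries alone, where 3 hairpin libraries stand against 1 parental library. HEY1, a transcription factor that Notch signalling induces, fell by 2.61 ± 0.43 (log2, SE), and the membrane-bound matrix metalloproteinase MMP16 fell by 2.40 ± 0.20 (log2, SE), both called by edgeR (adjusted p = 0.014 and 0.000822).

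**Figure D1:**
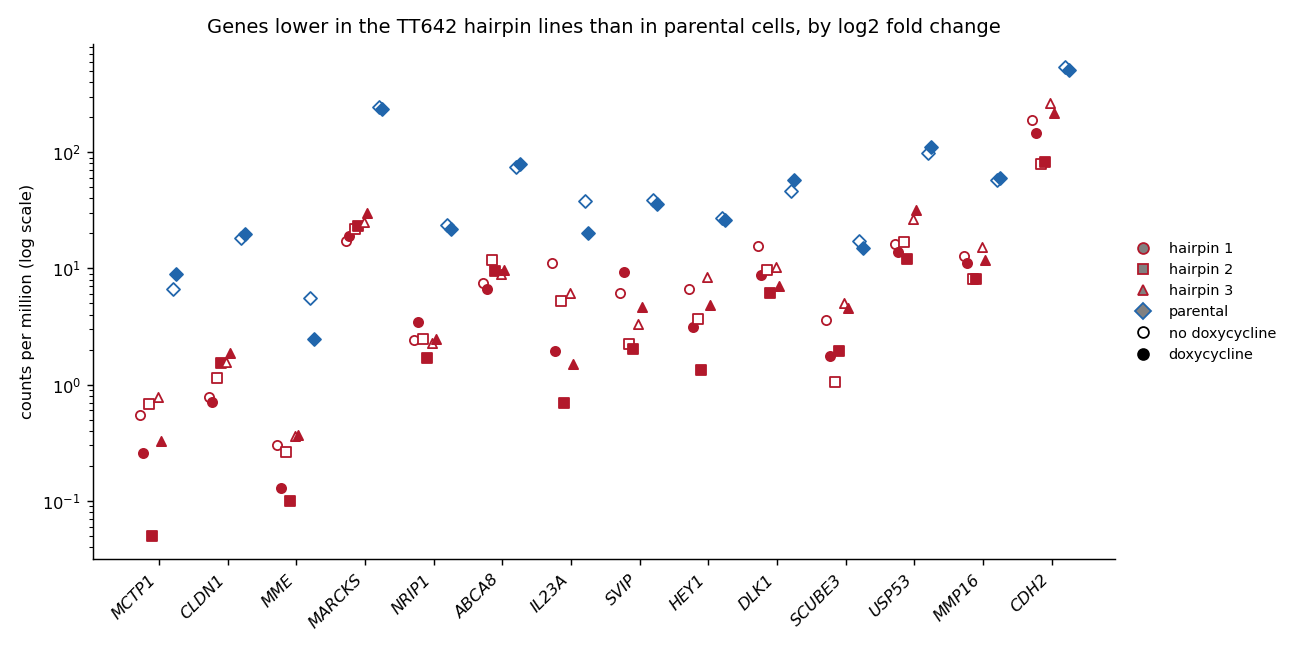
CPM on a log scale for 11 of the 12 lower genes with the largest log2 fold changes and for MCTP1, MME and CDH2 in each TT642 library. Red symbols are hairpin lines (circle 1, square 2, triangle 3), blue diamonds parental cells, filled symbols doxycycline. Every red symbol lies below both blue ones of its gene.

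SVIP, an inhibitor of endoplasmic reticulum-associated degradation, USP53, a protein of the deubiquitinase family, and the secreted glycoprotein gene SCUBE3 were also among the 12 largest decreases, with hairpin values of 2.04 to 9.40, 12.1 to 32.1 and 1.04 to 5.04 CPM. The parental libraries had 38.9 and 35.9 CPM of SVIP, 98.0 and 112 CPM of USP53, and 17.3 and 14.9 CPM of SCUBE3. IL23A, which encodes a subunit of the cytokine interleukin 23, had 11.0, 5.27 and 6.12 CPM in untreated hairpins 1, 2 and 3 and 1.95, 0.698 and 1.51 CPM in induced ones, against 37.9 CPM in untreated and 20.1 CPM in induced parental cells. For IL23A the induced hairpin libraries were all lower than the untreated ones, and the parental libraries lay above both. The call of IL23A was lost without the induced parental library, and those of SVIP, USP53, SCUBE3 and HEY1 were lost when either parental library was left out.

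The genes that were higher in the hairpin lines changed less. ONECUT3, a homeodomain transcription factor of developing neural and endodermal tissue, had 6.86, 14.8 and 8.04 CPM in untreated hairpins 1, 2 and 3 and 13.4, 6.23 and 9.08 CPM in induced ones, against 1.05 CPM in untreated and 1.38 CPM in induced parental cells. The groups did not overlap, and the fold change was 3.00 ± 0.47 (log2, SE; edgeR adjusted p = 0.00852), although ONECUT3 was not called with the derived line as a replicate block. CACNA1G, a T-type calcium channel subunit, had 26.8, 22.8 and 24.8 CPM in untreated hairpins 1, 2 and 3 and 37.3, 25.2 and 27.7 CPM in induced ones, against 8.34 CPM in untreated and 8.09 CPM in induced parental cells. Its fold change was 1.73 ± 0.17 (log2, SE; edgeR adjusted p = 0.00067), and of the 12 higher genes with the largest changes it was the one called in all fits named above except that of the induced libraries alone. CCL2, a chemokine that attracts monocytes, lay at 22.2 to 42.4 CPM in the hairpin libraries, against 10.9 CPM in untreated and 11.2 CPM in induced parental cells. CD82, a tetraspanin, had 10.2, 7.82 and 11.4 CPM in untreated hairpins 1, 2 and 3 and 24.97, 24.5 and 24.9 CPM in induced ones, against 5.44 CPM in untreated and 7.04 CPM in induced parental cells. CCL2 and CD82 rose by 1.58 ± 0.31 and 1.33 ± 0.22 on the log2 scale (SE; edgeR adjusted p = 0.0228 and 0.00758), CD82 being highest in the induced libraries. The contactin gene CNTN4, the zinc finger gene ZNF503, the copine gene CPNE8, the collagen genes COL15A1 and COL5A1, the potassium channel gene KCNK3, the lysine degradation enzyme gene AASS and the ligand gene WNT2 completed this group, with fold changes of 1.31 to 1.93 (log2). ZNF503, COL5A1, COL15A1, KCNK3 and CNTN4 were not called with the derived line as a replicate block.

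**Figure D2:**
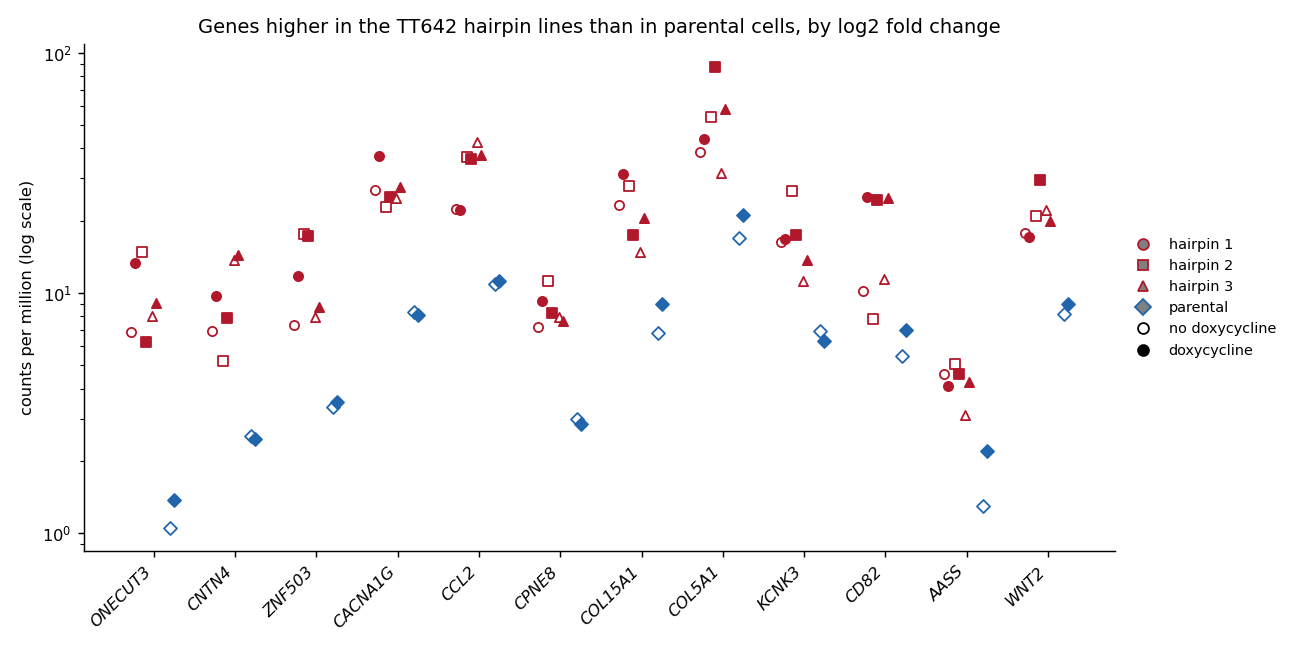
CPM on a log scale for the 12 higher genes with the largest log2 fold changes in each TT642 library. Red symbols are hairpin lines (circle 1, square 2, triangle 3), blue diamonds parental cells, filled symbols doxycycline. Every red symbol lies above both blue ones of its gene.

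A group of chemokine genes fell together. CXCL1, CXCL2, CXCL3 and CXCL6 lie close to each other on chromosome 4 and encode neutrophil attractants, textbook targets of the transcription factor NF-kappaB. NF-kappaB binds short elements that open with a run of G and close with a run of C. The 250 bases before the RefSeq start of each gene are shown (RefSeq, GRCh38.p14, 5′ to 3′ on the gene's strand, whereas the counts were made on hg19). Capitals mark the longest run of bases that all 4 windows share, 11 bases of this type, and the next longest shared run had 8 bases.
CXCL1 (chr4:73869143-73869392, plus strand): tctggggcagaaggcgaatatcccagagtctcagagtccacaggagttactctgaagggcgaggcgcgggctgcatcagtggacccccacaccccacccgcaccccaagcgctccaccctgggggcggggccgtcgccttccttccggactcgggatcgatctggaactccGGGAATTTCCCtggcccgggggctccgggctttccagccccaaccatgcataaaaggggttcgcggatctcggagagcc
CXCL2 (chr4:74099196-74099445, minus strand): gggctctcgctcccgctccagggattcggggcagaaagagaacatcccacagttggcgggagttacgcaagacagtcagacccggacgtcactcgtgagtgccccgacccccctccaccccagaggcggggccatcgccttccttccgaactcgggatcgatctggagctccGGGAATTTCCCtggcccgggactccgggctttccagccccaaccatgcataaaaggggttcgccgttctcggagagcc
CXCL3 (chr4:74038690-74038939, minus strand): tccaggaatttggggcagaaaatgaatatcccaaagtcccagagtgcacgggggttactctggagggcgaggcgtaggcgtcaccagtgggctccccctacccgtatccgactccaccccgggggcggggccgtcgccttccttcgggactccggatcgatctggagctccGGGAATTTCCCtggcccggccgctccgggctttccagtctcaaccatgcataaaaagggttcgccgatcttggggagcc
CXCL6 (chr4:73836428-73836677, plus strand): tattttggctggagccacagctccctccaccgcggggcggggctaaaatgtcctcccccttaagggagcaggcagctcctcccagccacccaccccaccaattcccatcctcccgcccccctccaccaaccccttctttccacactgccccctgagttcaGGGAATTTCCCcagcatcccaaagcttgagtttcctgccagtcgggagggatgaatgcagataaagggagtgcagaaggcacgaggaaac
The shared run GGGAATTTCCC ended 68, 67, 68 and 79 bases before the start site in CXCL1, CXCL2, CXCL3 and CXCL6. Searched on both strands, it was present in 27 of 35116 upstream windows of this length (0.0769%). The window of CXCL5, on the same chromosome, held it too, and those of CXCL8, NFKBIA and PTGS2 did not. The run was chosen because the windows of CXCL1, CXCL2, CXCL3 and CXCL6 share it, so its rarity is no test of these genes. Their windows and that of CXCL5 are among the 27, and CXCL1, CXCL2 and CXCL3 are close paralogues. A match describes the letters only.

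CXCL1 had 0.607, 1.20 and 0.840 CPM in untreated hairpins 1, 2 and 3 and 0.584, 1.35 and 0.896 CPM in induced ones, against 8.84 CPM in untreated and 12.6 CPM in induced parental cells. CXCL6 had 0.0607, 0.835 and 0.0600 CPM in untreated hairpins 1, 2 and 3 and 0.195, 0.648 and 0.366 CPM in induced ones, against 12.6 CPM in untreated and 10.2 CPM in induced parental cells. For both genes every hairpin library lay below both parental ones, and hairpin 2 was the highest of the derived lines. The fold changes were -3.52 ± 0.26 for CXCL1 and -4.89 ± 0.52 for CXCL6 (log2, SE; edgeR adjusted p = 0.000113 and 0.00208). CXCL2 and CXCL3 were low, at no more than 0.182 and 0.349 CPM in any hairpin library, against 0.849 and 1.10 CPM of CXCL2 and 1.90 and 2.09 CPM of CXCL3 in the parental libraries. Their fold changes were -3.35 ± 0.55 and -3.25 ± 0.49 (log2, SE; edgeR adjusted p = 0.00673 and 0.00422). CXCL1, CXCL2 and CXCL3 are close paralogues whose reads the counting could have split in an unknown way. CXCL5 had under 1 CPM in every library, with a log2 difference of -1.03 ± 1.05 (SE), and was not called.

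In the list of inflammatory and NF-kappaB genes as a whole, 7 of 24 tested genes were lower and 1 was higher in the hairpin lines. Over all genes tested, 6.78% were lower and 6.09% higher. The median log2 difference of the list was -0.42, against 0.01 over all genes tested. In the same contrast in Hs578, the members tested there had a median of -0.47, against -0.0029 over all genes. Beside the 4 chemokine genes, the lower members were PTGS2, the inducible cyclooxygenase of prostaglandin synthesis, CSF1, a growth factor of macrophages, and NFKBIA, which encodes the inhibitor that NF-kappaB itself induces. PTGS2 lay at 35.4 to 46.3 CPM in the hairpin libraries, against 77.2 CPM in untreated and 95.7 CPM in induced parental cells, and CSF1 lay at 23.8 to 36.2 CPM, against 52.2 and 46.6 CPM. NFKBIA, at 26.6 to 45.8 CPM in the hairpin libraries and 63.4 and 42.3 CPM in the parental ones, was called although its groups overlapped. CCL2, the higher member, is described above. The count was again 7 lower and 1 higher with the derived line as a replicate block, and 2 lower after summing the libraries of each line. Of 12 blood cell markers, 2 passed the expression filter, the actin-bundling gene LCP1, lower at 0.417 to 1.02 CPM in the hairpin libraries, against 3.80 and 3.19 CPM in the parental ones, and CD68, not called, while the defining markers PTPRC, CD3E and CD14 did not pass. The 2 markers that passed, LCP1 and CD68, summed to 13.7 to 18.9 CPM in the hairpin libraries and to 19.9 and 22.0 CPM in the parental ones. The other markers are not in these sums, and the part of blood cells in the result was not tested.

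Immediate early genes, which cells switch on within minutes of a growth or stress signal, were lower in 8 of 24 tested cases (33.3%, against 6.78% of all genes) and higher in none, with a median log2 difference of -0.21. In the same contrast in Hs578 the median of these genes was 0.26. With the derived line as a replicate block 7 were lower in TT642, NR4A1 having lost its call. DUSP6 and DUSP1, phosphatases that MAP kinase signalling induces and that switch it off, fell most. DUSP6 had 4.04 to 6.42 CPM in the hairpin libraries, against 14.1 CPM in untreated and 15.5 CPM in induced parental cells (log2 fold change -1.46 ± 0.16, SE; edgeR adjusted p = 0.00103). DUSP1 had 17.1 to 23.6 CPM in the hairpin libraries, against 43.3 CPM in untreated and 36.4 CPM in induced parental cells. The groups did not overlap for either gene. The other lower members were the transcription factor genes KLF4, ATF3, NR4A1, FOSL1 and MYC, and IER2, with log2 differences of -0.74 to -0.27, and of these only NR4A1 had overlapping groups. The growth factor gene FGF2 was also lower, at 409 to 786 CPM in the hairpin libraries, against 1413 CPM in untreated and 1286 CPM in induced parental cells (log2 fold change -0.95 ± 0.20, SE; edgeR adjusted p = 0.0255), a call that was lost with the replicate block and with the correction for GC content described below.

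Genes of the antioxidant programme of the transcription factor NRF2 were lower in 6 of 18 tested cases (33.3%, against 6.78% of all genes) and higher in none, and 4 were lower with the replicate block. Their median log2 difference was -0.24, and in the same contrast in Hs578 it was -0.17. TXNRD1, a thioredoxin reductase, had 245 to 304 CPM in the hairpin libraries, against 449 CPM in untreated and 419 CPM in induced parental cells (log2 fold change -0.61 ± 0.07, SE; edgeR adjusted p = 0.000927). GCLM, of glutathione synthesis, SLC7A11, the cystine importer, OSGIN1, NQO1 and FTL had log2 fold changes of -0.57 to -0.32, none of them with overlapping groups. Among p53 targets, 4 of 23 tested genes were lower (MDM2, FAS, ZMAT3 and BAX, 17.4%, against 6.78% of all genes) and none was higher. With the replicate block 2 were lower and FAS was not called. The median log2 difference of the p53 targets was -0.17 in TT642 and -0.15 in Hs578. MDM2 had 223 to 258 CPM in the hairpin libraries, against 348 and 316 CPM in the parental ones. SLC38A2, a neutral amino acid transporter, had 769, 853 and 646 CPM in untreated hairpins 1, 2 and 3 and 629, 589 and 630.3 CPM in induced ones, against 1464 CPM in untreated and 1368 CPM in induced parental cells. Its groups did not overlap, and the fold change was -1.05 ± 0.09 (log2, SE; edgeR adjusted p = 0.00039).

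The calls among S-phase and mitosis genes were all on the higher side, and the share of mitosis genes called was near that of all genes. Of 35 S-phase genes tested, 6 were higher (17.1%, against 6.09% of all genes; CLSPN, MCM10, POLE, CHAF1A and RFC2 among them) and none was lower, with a median log2 difference of 0.24. Of 35 mitosis genes tested, 3 were higher (8.57%: MKI67, CENPA and CCNB2) and none was lower, with a median of 0.31. In the same contrast in Hs578 the medians were 0.38 for S-phase and 0.34 for mitosis genes. MKI67, the marker of cycling cells, had 72.2, 70.6 and 78.5 CPM in untreated hairpins 1, 2 and 3 and 50.4, 71.0 and 55.0 CPM in induced ones, against 39.4 CPM in untreated and 44.4 CPM in induced parental cells. Its groups did not overlap, and the fold change was 0.65 ± 0.15 (log2, SE; edgeR adjusted p = 0.0262). With the derived line as a replicate block 1 S-phase gene and no mitosis gene was called. Without the untreated or without the induced parental library no gene of these 2 lists was called by edgeR, and the lower calls were 2 and 1 in the inflammatory list, 1 and 1 among immediate early genes, and 1 and 0 among NRF2 genes.

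**Figure D3:**
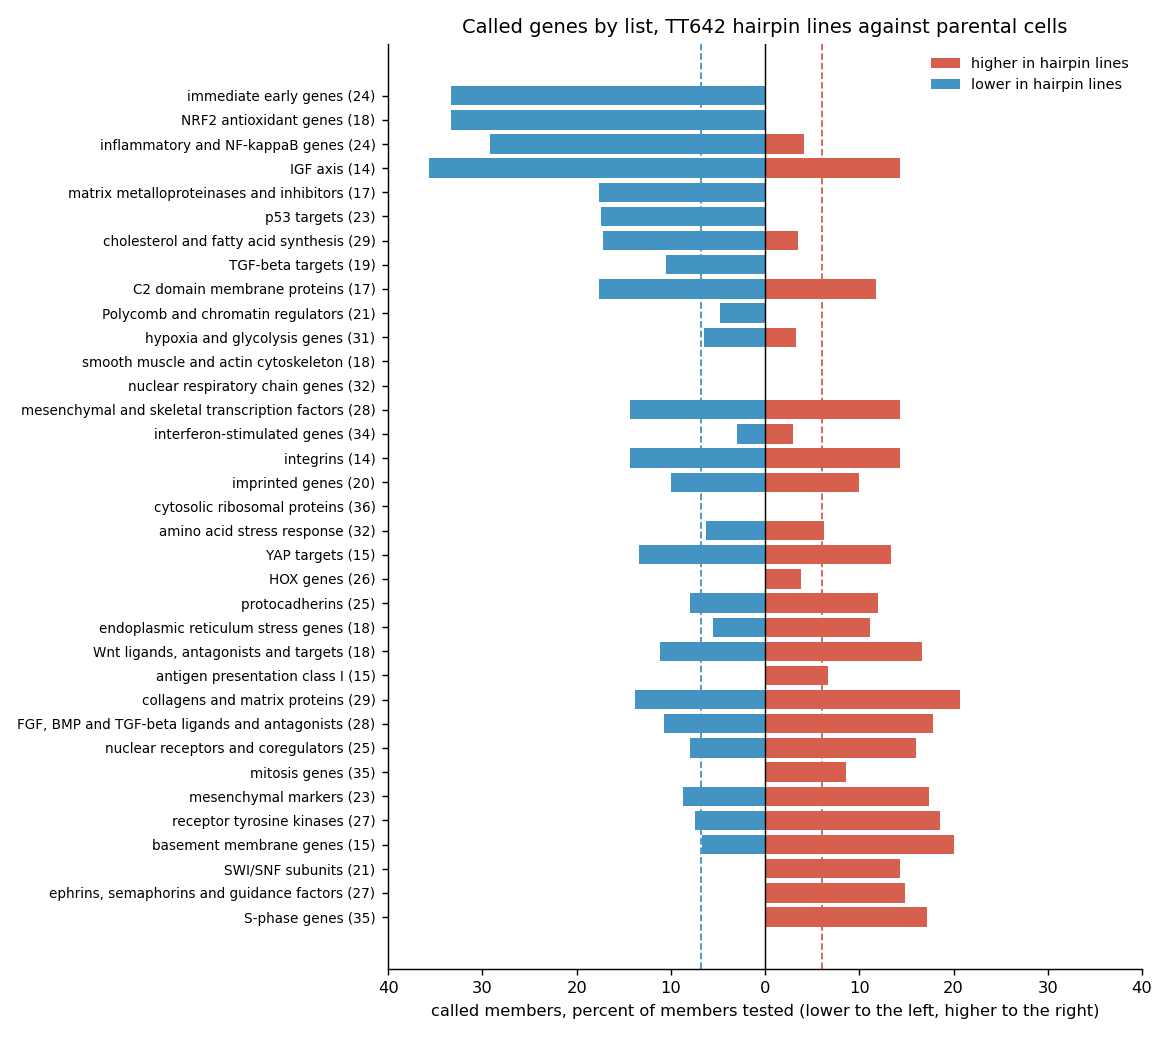
Called members of the 35 gene lists with at least 14 tested members, as percent of the members tested, the number of which stands in brackets. Bars to the left are genes lower and bars to the right genes higher in the hairpin lines; dashed lines mark the shares over all genes tested, 6.78% and 6.09%. The insulin-like growth factor axis extends furthest to the left (35.7%), followed by the immediate early and NRF2 lists (33.3% each), and the collagen and matrix list furthest to the right (20.7%).

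Matrix genes split in both directions. Of 29 collagen and matrix genes tested, 6 were higher (20.7%, against 6.09% of all genes) and 4 lower (13.8%, against 6.78%), and 4 were higher and 3 lower with the replicate block, where COL5A1 lost its call. COL3A1, a fibrillar collagen, had 1187 to 2595 CPM in the hairpin libraries, against 629 CPM in untreated and 836 CPM in induced parental cells, and the small proteoglycan gene DCN had 1239 to 1649 CPM, against 996 and 893 CPM. COL5A1, COL6A2, COL6A3 and EFEMP2 were the other higher genes, with overlapping groups for COL6A2 and EFEMP2. TNC, the adhesion-modulating glycoprotein tenascin C, had 23.2, 27.0 and 20.6 CPM in untreated hairpins 1, 2 and 3 and 30.4, 15.8 and 24.7 CPM in induced ones, against 88.4 CPM in untreated and 95.5 CPM in induced parental cells (log2 fold change -1.96 ± 0.19, SE; edgeR adjusted p = 0.00188). SPARC, COL6A1 and VCAN were lower as well, VCAN not being called with DESeq2. The matrix enzyme list had 3 lower genes of 17 tested, ADAMTS4, MMP3 and MMP16, and none higher.

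In the insulin-like growth factor axis, 5 of 14 tested genes were lower (35.7%) and 2 higher (14.3%). The binding protein genes IGFBP5 and IGFBP2 fell, with fold changes of -3.51 ± 0.57 and -2.21 ± 0.40 (log2, SE, edgeR adjusted p = 0.0066 and 0.0191). IGFBP5 was low, at 0 to 0.522 CPM in the hairpin libraries, against 3.25 CPM in untreated and 1.49 CPM in induced parental cells. In Hs578 it differed by -1.76 ± 0.55 (log2, SE) and was not called. IGFBP2 had 2.92 to 10.4 CPM in the hairpin libraries, against 31.5 and 36.4 CPM in the parental ones. The receptor substrates went apart: IRS1 had 576 to 730.5 CPM in the hairpin libraries, against 416 and 395 CPM in the parental ones, whereas IRS2 had 0.249 to 1.15 CPM, against 2.40 and 1.65 CPM. Among transcription factors of the mesenchyme and skeleton, 4 of 28 were lower, ALX1, SOX9, SNAI1 and ZEB1, and 4 were higher, SNAI2, MSX1, HAND2 and TWIST2, which is 14.3% on each side, against 6.78% and 6.09% of all genes. With the replicate block 2 were lower and 1 higher, and SNAI1 and ZEB1 were not called, SNAI1 not with DESeq2 either. SOX9, the regulator of cartilage formation, had 3.89, 1.98 and 2.64 CPM in untreated hairpins 1, 2 and 3 and 2.21, 0.399 and 1.22 CPM in induced ones, against 12.5 CPM in untreated and 6.88 CPM in induced parental cells. Its groups did not overlap. Of the protocadherins, 3 of 25 were higher (12%) and 2 lower (8%, near the 6.78% of all genes), PCDH10 with a fold change of -3.45 ± 0.30 (log2, SE; edgeR adjusted p = 0.000384), while the 6 tested cadherin genes, CDH2 included, gave no call.

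Surface receptors and secreted regulators gave calls on both sides. Of 27 receptor tyrosine kinase genes tested, 5 were higher (18.5%; PDGFRA, RET, FGFR3, ERBB2 and MERTK) and 2 lower (7.41%; EPHA2 and ERBB4), against 6.09% and 6.78% of all genes, and 3 were higher and 2 lower with the replicate block. PDGFRA, a receptor of platelet-derived growth factors, had 67.4, 82.6 and 62.2 CPM in untreated hairpins 1, 2 and 3 and 59.1, 84.6 and 61.0 CPM in induced ones, against 42.6 CPM in untreated and 40.8 CPM in induced parental cells (log2 fold change 0.74 ± 0.16, SE; edgeR adjusted p = 0.021). Hairpin 2 was the highest of the derived lines for PDGFRA. The groups did not overlap for any of these 7 genes, nor for 1566 of the 1615 called genes and 33% of all genes tested. The integrin subunit genes ITGA4 and ITGB1 were lower and ITGB5 and ITGA5 higher of 14 tested, ITGA4 with 3.91 to 6.39 CPM in the hairpin libraries, against 11.9 CPM in untreated and 11.6 CPM in induced parental cells. Of 27 guidance genes tested, SEMA4B, SEMA4C, EFNB3 and ROBO1 were higher (14.8%) and none was lower. In the Wnt list the secreted antagonist genes SFRP1 and WIF1 and the ligand gene WNT2 were higher of 18 tested, and DKK3 and TNFRSF19 were lower, which is 16.7% and 11.1%, against 6.09% and 6.78% of all genes. DKK3 was not called with the replicate block or with DESeq2. SFRP1 had 54.3 to 88.5 CPM in the hairpin libraries, against 38.9 CPM in untreated and 31.1 CPM in induced parental cells (log2 fold change 0.96 ± 0.11, SE; edgeR adjusted p = 0.0011). Of 29 cholesterol and fatty acid genes, 5 were lower (17.2%; STARD4, SC5D, FADS1, SQLE and CYP51A1) and ACSS2 was higher, with log2 differences of -0.72 to 0.31, and 3 were lower and none higher with the replicate block.

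No gene was called among the 36 cytosolic ribosomal protein genes, the 32 nuclear respiratory chain genes, the 13 mitochondrial transcripts and the 18 smooth muscle and actin genes tested with edgeR. At an unadjusted p under 0.05 in edgeR's test these lists held 4, 2, 1 and 7 genes, against 3874 of all 12553 genes tested. DESeq2 called 1 mitochondrial transcript lower and 2 smooth muscle and actin genes higher. Of the markers of other cell types, no endothelial (1 tested), adipocyte (3) or bone and cartilage (5) gene was called. Skeletal muscle markers gave 1 higher call of 3 (TNNT1), and kidney and nephron progenitor markers 1 lower call of 5 (CITED1). Epithelial markers gave 2 lower calls of 9 (KRT18 and OCLN, 22.2%, against 6.78% of all genes) and none higher. KRT18 differed by -2.40 ± 0.51 (log2, SE, edgeR adjusted p = 0.0162), at 1.65 CPM or less in every TT642 library. Neural markers gave 1 higher call of 13 (7.69%, near the 6.09% of all genes) and 3 lower calls (23.1%, against 6.78% of all genes). The lower ones were SYT1, GFAP and NES, GFAP not being called with the replicate block or with DESeq2. Neural crest and glial markers gave 3 lower calls of 6 (50%, against 6.78% of all genes), EDNRB, SOX9 and NGFR. NES, an intermediate filament of immature cells, lay at 175 to 286 CPM in the hairpin libraries, against 375 and 393 CPM in the parental ones. Of 21 SWI/SNF genes tested, 3 were called higher (14.3%, against 6.09% of all genes) and none lower, SMARCB1 among the higher. SMARCB1 had 40.5, 38.3 and 44.7 CPM in untreated hairpins 1, 2 and 3 and 41.6, 44.6 and 39.0 CPM in induced ones, against 31.0 CPM in untreated and 35.4 CPM in induced parental cells. That difference, 0.32 ± 0.09 (log2, SE; edgeR adjusted p = 0.0403), was lost with the replicate block.

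Lower genes often stood next to each other on the chromosomes. Of the 851 lower genes, 245 (28.8%) had another lower gene as the nearest tested gene on at least 1 side in the RefSeq order, against 12.8% of all tested genes, and of the 213 that were at least 2-fold lower, 83 (39.0%) did. For the higher genes the shares were 18.5% against 11.6%. Base composition moved with the calls: the median GC content of the transcripts was 56.8% for higher genes, 43.7% for lower genes and 50.2% for all genes tested, and neighbouring genes tend to share it. After a correction for GC content, chosen after these values were seen, 1619 genes were called, 667 higher and 952 lower, of which 1162 were called before, and the shares with a like neighbour were 24.9% of the lower genes, against 14.5% of all tested genes, and 19.3% of the higher genes, against 10.3%. The 4 chemokine genes and MARCKS, MCTP1, MME, NRIP1 and CLDN1 were called after the correction as well. Of the genes chosen by the rule, SMARCB1, ZNF503, COL5A1, KCNK3, ZEB1, FGF2, FAS, EGLN1, SLC7A11 and ACSS2 lost their calls with it.

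Some of these neighbours were close to silent in the hairpin lines. The genes in this paragraph were picked after their values were seen. CLDN16, the neighbour of CLDN1 on chromosome 3, had no read in any of the 6 hairpin libraries, against 123 reads in untreated and 58 in induced parental cells, which made it at least 177-fold lower with 3 counts over the hairpin group as the floor. The annotation has CLDN16 and CLDN1 overlapping, and the sources used here do not say if strand was used in counting, so their reads may not be separate. SAMSN1, next to NRIP1 on chromosome 21, had 1 read in the 6 hairpin libraries together, against 73 and 74 reads in the parental libraries. On either side of that pair HSPA13 and USP25 differed by -0.28 ± 0.09 and -0.08 ± 0.07 (log2, SE) and were not called. RERGL and PIK3C2G, neighbours on chromosome 12, had 2 reads and 1 read in the hairpin libraries together, against 32 and 36 reads of RERGL and 18 and 16 reads of PIK3C2G in the parental libraries. On chromosome 6, RFPL4B next to MARCKS had 0 to 6 reads per hairpin library, against 77 and 19 reads in the parental libraries. LAMA4, on the other side of RFPL4B, was also called lower (-2.28 ± 0.63, log2, SE), though not with the replicate block. It had 0 to 10 reads per hairpin library, against 22 and 14 in the parental ones. HDAC2, on the other side of MARCKS, differed by -0.23 ± 0.07 (log2, SE) and was not called, but it was called lower after the correction for GC content (-0.21, log2).

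**Figure D4:**
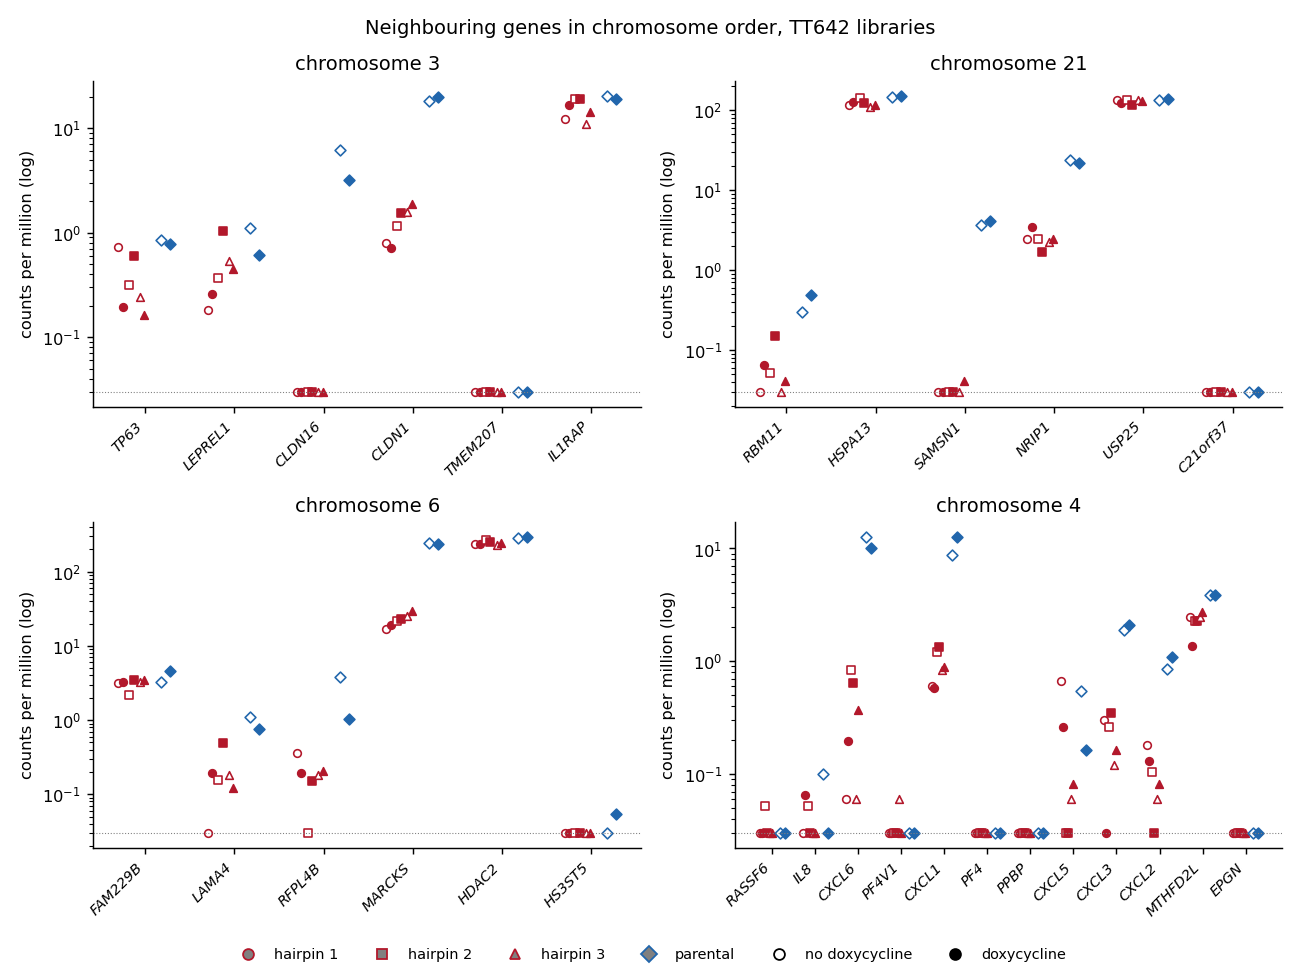
CPM on a log scale for genes in chromosome order around CLDN1 (chromosome 3), NRIP1 (21), MARCKS (6) and the CXCL genes (4) in each TT642 library. Red symbols are hairpin lines (circle 1, square 2, triangle 3), blue diamonds parental cells, filled symbols doxycycline; values at or under 0.03 are drawn on the dotted line. CLDN16 and SAMSN1 lie near the dotted line in the hairpin lines only, while HSPA13, USP25 and HDAC2 lie close to the parental values.

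Chromosome 2 stood out in the other direction, a pattern also picked after it was seen. Of its 828 tested genes, 94 were higher and 30 lower, so 75.8% of its calls were higher, although the median GC content of its genes, 46.6%, was below that of all genes. After the correction for GC content the counts were 113 higher and 29 lower. Chromosome 19, with 75 higher and 21 lower calls and a median GC content of 60.2%, had 36 higher and 61 lower calls after it. The median log2 difference of the chromosome 2 genes was 0.05 to 0.13 in the 6 comparisons of a hairpin library with the parental library of the same treatment, and -0.00075 between the parental libraries. In hairpin 2 without doxycycline it was 0.13, against -0.04 to 0.04 on the other chromosomes, while in untreated hairpins 1 and 3 it lay within the range of the others. In Hs578 the median of the same genes was -0.03.

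Whether the hairpin status changed the doxycycline response was tested in TT642 alone. The interaction rests on 1 parental library per treatment and did not call even PRRX1, so a lack of calls does not show equal responses. No gene of 12814 was called by edgeR (0%), and 127 had an unadjusted p under 0.05. DESeq2 called none either, with 49 genes at an unadjusted p under 0.05. PRRX1 itself had an interaction of -2.08 (log2; unadjusted p = 0.0443, edgeR adjusted p = 0.9999).

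The same contrast in Hs578 gave no call among 12737 genes with edgeR (0%), although 2109 genes had an unadjusted p under 0.05, DESeq2 called 64, and 1563 were called without the untreated parental Hs578 library. Of the genes called in TT642 that were tested in Hs578, 504 of 764 lower genes (66.0%) and 336 of 713 higher genes (47.1%) had the same sign there, against 54.0% of all genes. The difference between the lines, TT642 minus Hs578, was called for 246 of 13764 genes (1.79%), 118 positive (0.857%) and 128 negative (0.93%). Of the 246, 214 were also called in TT642, against 12.9% of all genes tested there. The difference contains the TT642 contrast of the same libraries, so this overlap is largely built in. With the derived line as a replicate block 112 differences were called.

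MARCKS was among these. It averaged 951 CPM in Hs578 hairpin lines and 1011 CPM in Hs578 parental cells, a difference of -0.09 (log2), and TT642 minus Hs578 was -3.31 (log2; edgeR adjusted p = 1.82e-07). For NRIP1, MCTP1, PCDH10, MMP16, CLDN1, ABCA8, TNC and MME, TT642 minus Hs578 was also negative and called by edgeR. That value compares the fold changes of hairpin lines over parental cells, not the levels of the 2 lines. For MME the difference in Hs578 was itself -1.20 (log2; edgeR adjusted p = 0.244). Of the higher genes, CACNA1G, CPNE8, ZNF503, COL15A1, AASS and CD82 had a called difference between the lines, COL15A1 with 1.51 in TT642 and -1.28 in Hs578 (log2), a gap of 2.80 (edgeR adjusted p = 0.0338).

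**Figure D5:**
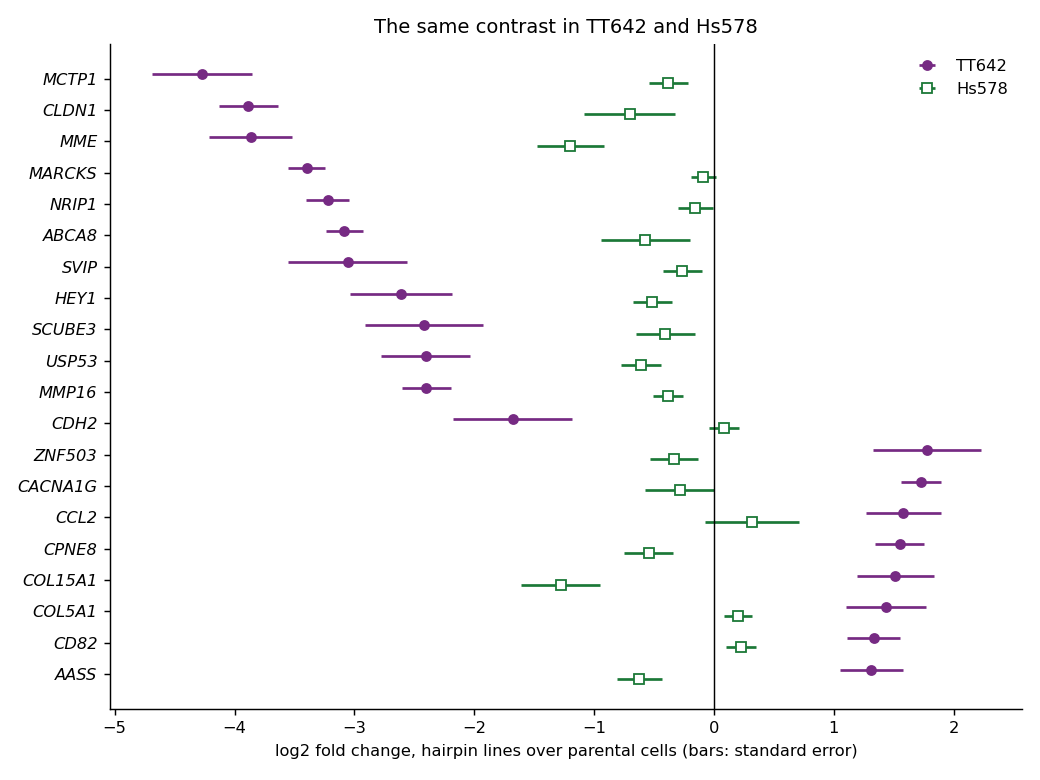
Log2 fold change of hairpin lines over parental cells with its standard error in TT642 (filled circles) and Hs578 (open squares), for the plotted genes of the 2 earlier plots that were tested in both. The TT642 decreases of MCTP1 to MMP16 lie left of their Hs578 values, and COL15A1 lies on opposite sides of 0.

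Since MARCKS, MME, NRIP1 and MCTP1 were all higher in Hs578 parental cells than in TT642 parental cells, RNA of Hs578 in the parental TT642 libraries was measured with 27 genes that had at least 50 CPM in every Hs578 library and at most 1 read in any TT642 hairpin library. On the scale of all 16 libraries they summed to 0.167 to 0.422 CPM in the TT642 hairpin libraries and to 1.02 and 1.80 CPM in the parental ones, against 4869 to 5928 CPM in Hs578. The low hairpin sum follows from the choice of these genes. The parental sum was 0.0268% of the Hs578 sum, and its part in the results was not tested.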

How the data were processed

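RNA-seq gene counts were measured in 16 libraries, 8 of them from TT642. Stranded TruSeq libraries were made from polyadenylated RNA, per the labels' protocols. The authors deposited raw counts per gene symbol for 20114 genes and FPKM values. Reads were placed on hg19, according to the submitters' processing notes, and the sources used here name no aligner, counter, annotation or strand setting. All columns matched sample titles.

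The counts were fitted with edgeR 4.0.16 in R 4.3.3 (quasi-likelihood test, TMM scaling, default expression filter, robust moderation) on the TT642 libraries with doxycycline as a covariate, and in Hs578 and both lines likewise. The tests were two-sided, and a gene was called at a Benjamini-Hochberg adjusted p under 0.05. Levels are CPM on the TMM-scaled library size, and per-library log2 values used a prior count of 2. Standard errors are the log2 fold change divided by the root of its F statistic. Nothing in the labels says whether libraries came from separate cultures, and the spread behind the p-values may be technical.

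Alternatives were DESeq2 1.42.0, limma 3.58.1 on log2(FPKM + 1) and log2(FPKM + 0.1), other scaling and filters, sums per derived line, libraries left out, and limma-voom with the derived line as a replicate block. Same-numbered libraries were read as the same derived line, and their deviations from the group means correlated at 0.53, 0.46 and 0.48, against -0.36 to -0.10 for different numbers. A correction for GC content was added after the data were seen, with GENCODE 29 transcripts giving a value for 98.8% of genes tested. The code was tested on simulated data. RefSeq gave chromosomes, gene order and upstream sequences, matched by symbol.

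The members, the 54 gene lists and the rule for named genes were chosen with earlier results of these data known. The rule named PRRX1, SMARCB1 and the proposed markers in any case, the 12 called genes with the largest fold change in each direction with an average log2 CPM of 1 or more and groups that did not overlap, up to 3 called members of each list with at least 3, and 5 genes per direction of the difference between the lines. XIST and Y-linked genes were left out, and 2 further genes are not reported here.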

Additional observations from a re-analysis of the deposited data

Results flagged for a closer look

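The hairpin against parental difference itself differed between TT642 and Hs578 for 246 genes in edgeR's test of TT642 minus Hs578 (adjusted p under 0.05). Among those with the largest positive differences were AL627309.1 (3.93 on the log2 scale), THSD7A (3.80), CTTNBP2 (2.93), COL15A1 (2.80) and SLC8A1 (2.73). Among those with the largest negative differences were LINGO2 (-7.81), PIK3C2G (-6.64), RERGL (-6.54) and PID1 (-4.36). Of these 9 genes, only COL15A1 reached a mean above 20 CPM in either TT642 group. The fitted values of LINGO2, PIK3C2G, RERGL and PID1 rest on hairpin libraries at or near 0 and depend on the prior count. LINGO2, PIK3C2G and RERGL did not pass the expression filter in Hs578 alone, so their differences rest on few Hs578 reads too. AL627309.1 did not pass the filter in TT642 alone, and CTTNBP2 was not called there. No group held 4 or more libraries, so single libraries were not screened.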

How the results depend on the processing

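The count of 1615 called genes was 1591 to 1634 under another scaling, without the filter, without robust moderation and with the correction for GC content (1619), 1999 with DESeq2 and 1264 with all 16 libraries fitted together. It was 783 on log2(FPKM + 1) and 789 on log2(FPKM + 0.1), 963 with the replicate block, 887 with the replicate block and the correction for GC content, 94 after summing, 89 in the untreated libraries alone and 2 in the induced ones alone. With libraries left out it ran from 54 (without the induced parental library) to 3453 (without hairpin 2), and it was 690 without hairpin 1, 801 without hairpin 3, 996 to 2187 without 1 hairpin library, and 116 without the untreated parental library, where the remaining one was assumed to vary like the hairpin lines. PRRX1 was called after summing (-0.94, log2) and with all 16 libraries (-1.22), with -2.26 to -0.19 as libraries were left out. No named gene changed direction under any alternative run. The interaction gave 0 genes throughout. The Hs578 contrast gave 64 genes with DESeq2, 1 without the filter and 1 with the replicate block, with and without the correction for GC content, and 0 to 1563 as libraries were left out. The difference between the lines gave 864 genes with DESeq2, 160 on log2(FPKM + 0.1), 112 with the replicate block, 423 with the correction for GC content, and 27 to 1646 as libraries were left out (27 without the induced and 47 without the untreated TT642 parental library, 41 without the induced and 1646 without the untreated Hs578 parental library). The cause of these shifts was not tested. Genes under about 1 CPM, at 15265227 to 24672906 counts per library, rest on few reads, and their fold changes are the least certain.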
